A study of Mus musculus with 23 samples.

Results

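The Cyp3a genes of the mouse encode monooxygenases of the liver, and their RNA was followed here across the livers of 23 mice, with 1 array per animal. Every probe set whose single platform symbol begins with Cyp3a was taken: 8 probe sets of 38385, for 7 genes of 19147. The genes were Cyp3a11, Cyp3a13 (with 2 probe sets), Cyp3a16, Cyp3a25, Cyp3a44, Cyp3a57 and Cyp3a59. Cyp3a41a and Cyp3a41b had no probe set under a single symbol and were not analysed here.

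The mice were wild-type (WT) or knockout (KO) for P2ry13, named GPR86 in the labels, which encodes a G-protein-coupled receptor for ADP. There were 6 female WT, 6 female KO, 5 male WT (numbered 2 to 6) and 6 male KO livers. The labels name no strain, age, diet, batch or knockout construct. The tests ask how knockout of P2ry13 moved each gene within a sex, whether the sexes differed in that, and how the sexes differed within a genotype. Comparisons that share a group of mice, such as KO against WT in females and females against males in WT, are not independent of each other.

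Enzymes of the CYP3A subfamily are haem proteins of the endoplasmic reticulum that take electrons from cytochrome P450 oxidoreductase and insert an oxygen atom into drugs, steroids and bile acids. Their transcription is driven by the nuclear receptors PXR (Nr1i2) and CAR (Nr1i3) together with HNF4A. In rodents several members are also sex-biased, because the pattern of growth hormone release differs between males and females and is read in hepatocytes through STAT5, with Cux2 and Onecut1 among the downstream factors. Cyp3a11 is the main adult hepatic form, Cyp3a16 is best known from fetal and newborn liver, and Cyp3a44 is known as a form of female liver. Cyp3a13 and Cyp3a25 are found in liver and intestine, and Cyp3a57 and Cyp3a59 are less studied members of the same subfamily.

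All 7 genes lie on chromosome 5 (RefSeq, GRCm38.p6), Cyp3a13 apart from the cluster that holds the others, whereas P2ry13 lies on chromosome 3. The RefSeq promoter table held all 7 genes, plus Cyp3a41a and Cyp3a41b. The 250 bases before the annotated start are shown for 5 of them: the members called between the sexes (Cyp3a16, Cyp3a44), and 3 measured members of the same cluster whose sex differences did not pass the test (Cyp3a11, Cyp3a25, Cyp3a59). Each is written 5′ to 3′ on the gene's own strand. The windows are chr5:145469724-145469973 (minus strand) for Cyp3a16, chr5:145805875-145806124 (minus) for Cyp3a44, chr5:145879855-145880104 (minus) for Cyp3a11, chr5:146009619-146009868 (minus) for Cyp3a25 and chr5:146079008-146079257 (plus) for Cyp3a59. Capitals mark matches, on either strand, to ATTGAT (a core bound by Onecut1 and Cux2), CAAAGTCCA (an HNF4A site) and AGGTCA (a nuclear receptor half-site). No 2 of these matches overlap.
Cyp3a16: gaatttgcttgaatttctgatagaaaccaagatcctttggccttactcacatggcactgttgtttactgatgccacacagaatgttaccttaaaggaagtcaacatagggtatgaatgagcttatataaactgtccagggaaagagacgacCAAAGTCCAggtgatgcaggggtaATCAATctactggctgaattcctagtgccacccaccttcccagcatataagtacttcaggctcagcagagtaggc
Cyp3a44: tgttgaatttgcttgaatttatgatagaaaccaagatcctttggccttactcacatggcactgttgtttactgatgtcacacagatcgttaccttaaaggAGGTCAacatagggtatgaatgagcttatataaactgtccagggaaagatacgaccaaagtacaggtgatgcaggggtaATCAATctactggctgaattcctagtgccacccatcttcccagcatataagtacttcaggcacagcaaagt
Cyp3a11: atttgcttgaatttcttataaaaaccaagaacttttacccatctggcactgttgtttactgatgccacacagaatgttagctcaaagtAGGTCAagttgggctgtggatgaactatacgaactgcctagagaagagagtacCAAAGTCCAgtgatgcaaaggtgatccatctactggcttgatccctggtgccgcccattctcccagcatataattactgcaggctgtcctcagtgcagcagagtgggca
Cyp3a25: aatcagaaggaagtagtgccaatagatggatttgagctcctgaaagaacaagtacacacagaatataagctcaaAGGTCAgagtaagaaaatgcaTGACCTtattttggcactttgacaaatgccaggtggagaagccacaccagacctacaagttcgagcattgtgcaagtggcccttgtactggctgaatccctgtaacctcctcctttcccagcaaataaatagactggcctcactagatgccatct
Cyp3a59: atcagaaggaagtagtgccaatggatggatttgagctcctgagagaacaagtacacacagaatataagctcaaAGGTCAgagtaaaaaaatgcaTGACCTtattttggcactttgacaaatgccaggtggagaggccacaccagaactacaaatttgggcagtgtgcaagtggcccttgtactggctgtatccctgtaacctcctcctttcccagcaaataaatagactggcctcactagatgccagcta

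The ATTGAT core, written ATCAAT on the gene's strand, lay 75 bases before the start in Cyp3a16 and 71 bases before it in Cyp3a44, and at the same 71 bases in Cyp3a41a and Cyp3a41b. It was absent from these 250 bases in Cyp3a11, Cyp3a13, Cyp3a25 and Cyp3a59, was present 223 bases before the start in Cyp3a57, and occurs in 6.72% of 32851 mouse promoters of this length. CAAAGTCCA, found in 0.384% of promoters, lay 99 bases before the start of Cyp3a16 and 109 before that of Cyp3a11. In Cyp3a41a and Cyp3a41b it lay 95 bases before the start. The letters of that motif were not in the Cyp3a44 window. Cyp3a44 held 1 AGGTCA at 150 bases, and Cyp3a11 also held 1, at 162 bases. Cyp3a57 held 2, at 174 and 153 bases. Cyp3a25 and Cyp3a59 each held 2 AGGTCA matches on opposite strands, at 176 and 155 and at 177 and 156 bases, against 14% of all promoters with at least 1. The STAT5 motif TTCNNNGAA, found in 7.02% of promoters, was in none of the Cyp3a windows. These are matches of letters, not measured binding sites.

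Aligned over the 300 bases of the table, the Cyp3a16 and Cyp3a44 promoters were 94.7% identical, and Cyp3a16 was 94.6% identical to Cyp3a41a. Cyp3a11 was 75.3% identical to Cyp3a16 and 72.6% to Cyp3a44. Cyp3a25, Cyp3a57 and Cyp3a59 formed the other close group, at 90.3% to 96.3%, and Cyp3a13 reached no more than 54.5% with any member. Sequences this alike may also share transcript sequence, and whether the probe sets of Cyp3a16 and Cyp3a44, or those of Cyp3a25 and Cyp3a59, read more than 1 gene was not tested.

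**Figure D1:**
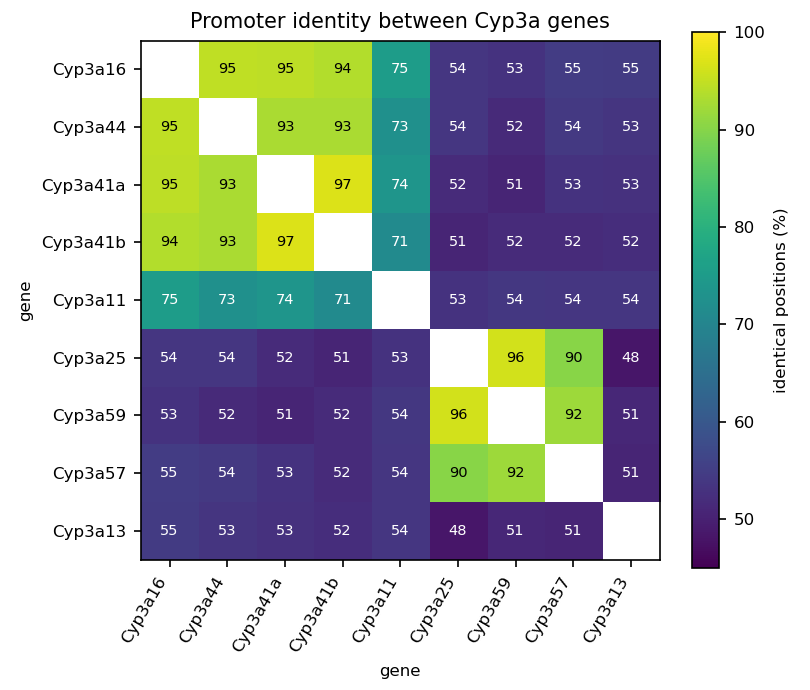
Percentage of identical positions between the 300-base promoters of 9 Cyp3a genes, as a matrix with the genes on both axes and the rounded value in each cell. Cyp3a16, Cyp3a44, Cyp3a41a and Cyp3a41b form a block at 93.0% or above, and Cyp3a25, Cyp3a57 and Cyp3a59 a block at 90.3% or above.

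All values below are log2 of the deposited array intensity. A level at or under 3.69 is only a bound, because that was the highest value that any of 4 Y-linked probe sets gave on a female array. Levels of different genes cannot be set against each other, since each probe set has its own response. Array medians spanned 19.5 to 21.1 as linear intensity. P2ry13 read lower in KO than in WT in both sexes, with no overlap of the arrays and means of 6.27 and 5.15 in female WT and KO and of 5.99 and 5.19 in male WT and KO. The KO arrays still read 5.06 to 5.34, above the floor, and whether the probe set lies within the altered part of the gene is not known here. Eif2s3y, a Y-linked gene, was at 2.72 to 3.45 in females and 8.23 to 8.91 in males, so the sex labels held on every array. Of 7 hepatocyte markers, 4 were measured, and their summed level was 15.20 to 15.51 on every array. In whole liver, fewer cells of a type and less RNA per cell cannot be told apart.

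Cyp3a16 was the member that varied most. It was measurable only in females, and the female KO livers had the higher mean. The female WT arrays 1 to 6 read 3.59, 4.16, 6.23, 7.83, 4.01 and 6.20, a mean of 5.34 ± 1.67 (SD, n = 6). The female KO arrays 1 to 6 read 9.04, 6.09, 9.22, 7.12, 8.35 and 7.84, a mean of 7.94 ± 1.19 (SD, n = 6). Of the KO females, 4 of 6 lay above all WT females, but the groups overlapped: WT array 4 was higher than KO arrays 2 and 4, and WT array 1 was under the floor. The 5 male WT arrays read 2.96, 2.48, 2.52, 2.60 and 2.81, and the 6 male KO arrays ran from 2.37 through a median of 2.68 to 3.15. All 11 male arrays were therefore under the floor, and no direction can be given for KO against WT in males.

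In females, Cyp3a16 was higher in KO than in WT by 2.61 (SE 0.52, 95% interval 1.53 to 3.68), a 6.09-fold difference with an interval from 2.89 to 12.8. That SE and those intervals draw on 1 spread averaged over all 4 groups, not on the females alone. The SDs were 1.67 and 1.19 in female WT and KO. They were 0.20 and 0.29 in male WT and KO, where all arrays were under the floor, so the male arrays narrow the intervals. With limma and Benjamini-Hochberg adjustment over all probe sets the adjusted p was 0.0549, so the difference did not pass the threshold of 0.05. The same comparison gave p = 0.0195 in a two-sided exact permutation test of the 6 and 6 arrays, unadjusted over 32 such tests. The call turned on single arrays: the adjusted p was 0.000962 without female WT array 4, at a difference of 3.11, and 0.00847 without female KO array 2, at 2.98. With arrays weighted by quality it was 0.0106, whereas it was 0.49 when only the female arrays entered the fit. On the female arrays only, and also without the spread shared between probe sets, the adjusted p was 0.921. The difference between the KO effects of the sexes was 2.54 (SE 0.76, adjusted p = 0.874), a value that sets the females against a male comparison under the floor.

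**Figure D2:**
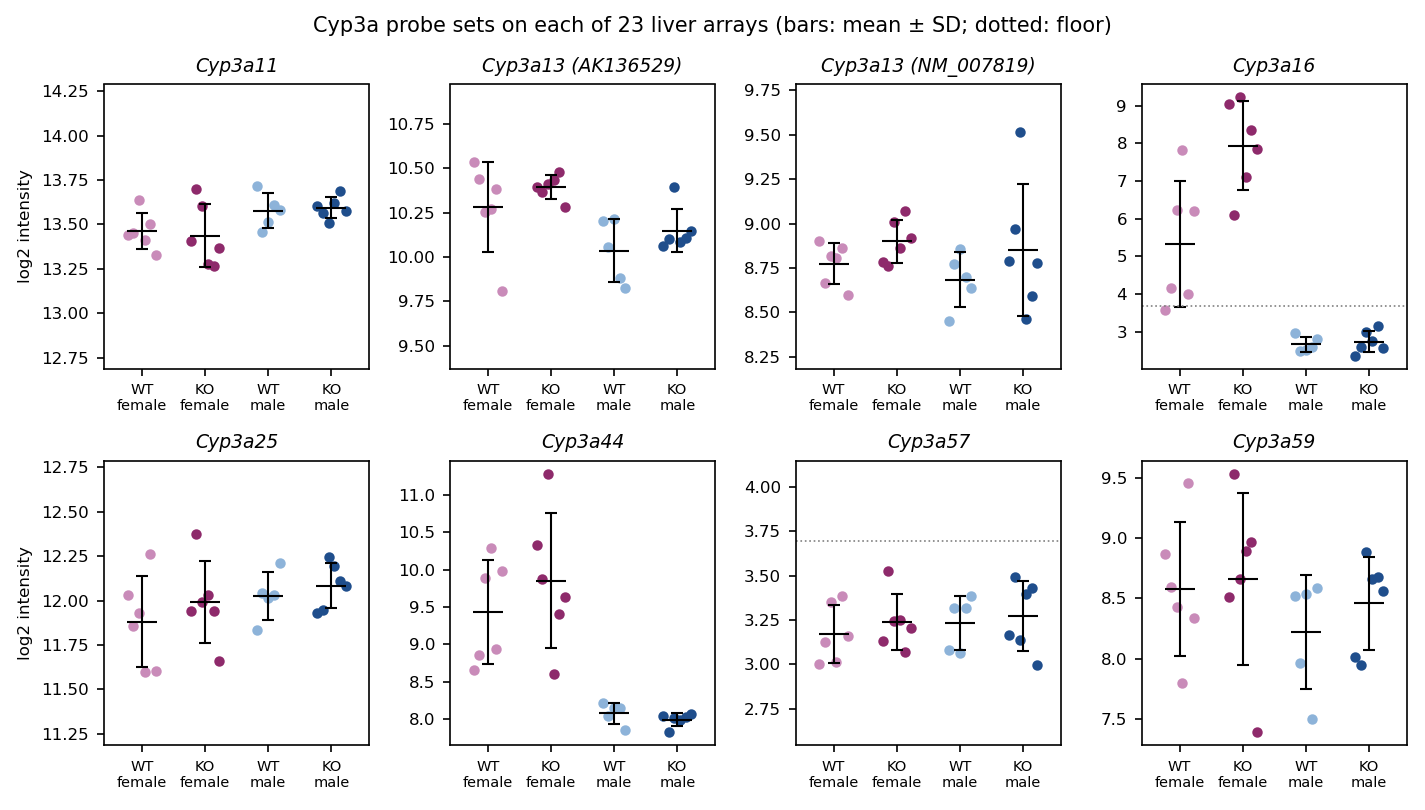
Log2 intensity of each of the 8 Cyp3a probe sets on the 23 arrays, 1 point per mouse, by group, with the mean and SD as bars and the floor of 3.69 as a dotted line where it falls in the panel; the vertical scale differs between panels. Cyp3a16 and Cyp3a44 are widely spread in females, all male points of Cyp3a16 lie under the floor, the male points of Cyp3a44 lie between 7.83 and 8.21, and Cyp3a57 lies under the floor on every array.

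Cyp3a44 was above the floor on every array of both sexes, with its highest group mean in female KO and its next in female WT. The female WT arrays 1 to 6 read 8.66, 8.86, 9.88, 10.29, 8.94 and 9.98, a mean of 9.44 ± 0.70 (SD, n = 6). The female KO arrays 1 to 6 read 10.32, 9.87, 11.28, 8.60, 9.41 and 9.64, a mean of 9.85 ± 0.90 (SD, n = 6). The KO range held the whole WT range. Of the KO females, 2 of 6 lay above all WT females, and KO array 4 was the lowest of all 12 females. The male WT arrays read 8.21, 8.04, 8.14, 8.15 and 7.85 (mean 8.08 ± 0.14), and the male KO arrays ran from 7.83 through a median of 8.02 to 8.07 (mean 8.0 ± 0.09, n = 6). The lowest female array was above the highest male array.

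KO minus WT of Cyp3a44 was 0.42 in females (SE 0.29, 95% interval -0.18 to 1.01, limma adjusted p = 0.896). In males it was -0.08 (SE 0.31, adjusted p = 0.987). Leaving out KO array 3, the highest, took the female value to 0.13, and leaving out KO array 4, the lowest, took it to 0.67. The female interval still allows a 2.02-fold higher level in KO, so the absence of a call does not show that the groups were equal. It draws on 1 spread averaged over all 4 groups, with SDs of 0.70 and 0.90 in females and 0.14 and 0.09 in males. The limit from the females alone may therefore be higher.

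Females exceeded males in both genes, in WT and in KO mice. In WT, Cyp3a16 was at least 3.12-fold higher in females, taking the floor as the male level. Its fitted difference was 2.66 (SE 0.55, limma adjusted p = 0.00313). Of the WT females, 5 of 6 lay above the floor and so above all males, and array 1, under the floor, cannot be ordered against them. In KO it was at least 19.0-fold higher, with a fitted difference of 5.20 (SE 0.52, adjusted p = 6.28e-08), with 6 of 6 females above the floor and above all males. Cyp3a44 was 2.56-fold higher in WT females (difference 1.36, SE 0.31, 95% interval 0.73 to 1.99, adjusted p = 0.00708) and 3.63-fold higher in KO females (1.86, SE 0.29, 95% interval 1.26 to 2.46, adjusted p = 8.82e-05). The exact permutation p was 0.00433 in WT and 0.00216 in KO for both genes, each the smallest that these numbers of arrays allow; for Cyp3a16 in WT it uses the value of array 1 as read.

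In each genotype 2 of 8 Cyp3a probe sets, those of Cyp3a16 and Cyp3a44, were called, and both were higher in females. Over all probe sets the test called 2.54% higher in females in WT and 3.21% in KO, and 4.25% and 4.85% in either direction. The groups did not overlap for these 2 members in each genotype, counting Cyp3a16 on WT array 1 as read, against 3.86% of all probe sets in WT and 3.38% in KO. In KO against WT, 0 of 8 passed in females, where the test called 0.0547% of all probe sets, and 0 of 8 in males, where it called 0.0313%. The difference of the KO effects was likewise called for 0 of 8, against 0.0104% of all probe sets. At an unadjusted limma p under 0.05 there was 1 member in females (Cyp3a16), 0 in males and 1 for the difference (Cyp3a16), beside 2253, 2355 and 1973 of all 38385 probe sets, where chance gives 1919. Between the sexes there were 3 members in WT and 4 in KO, beside 6331 and 6217 of all probe sets. In WT the call for Cyp3a44 was lost when a minimum change of 20% was required (adjusted p = 0.0809). A test on the WT arrays only, also without the shared spread, lost both genes (adjusted p = 0.134 for Cyp3a16 and 0.0748 for Cyp3a44). In KO both passed in each of the 33 alternatives.

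**Figure D3:**
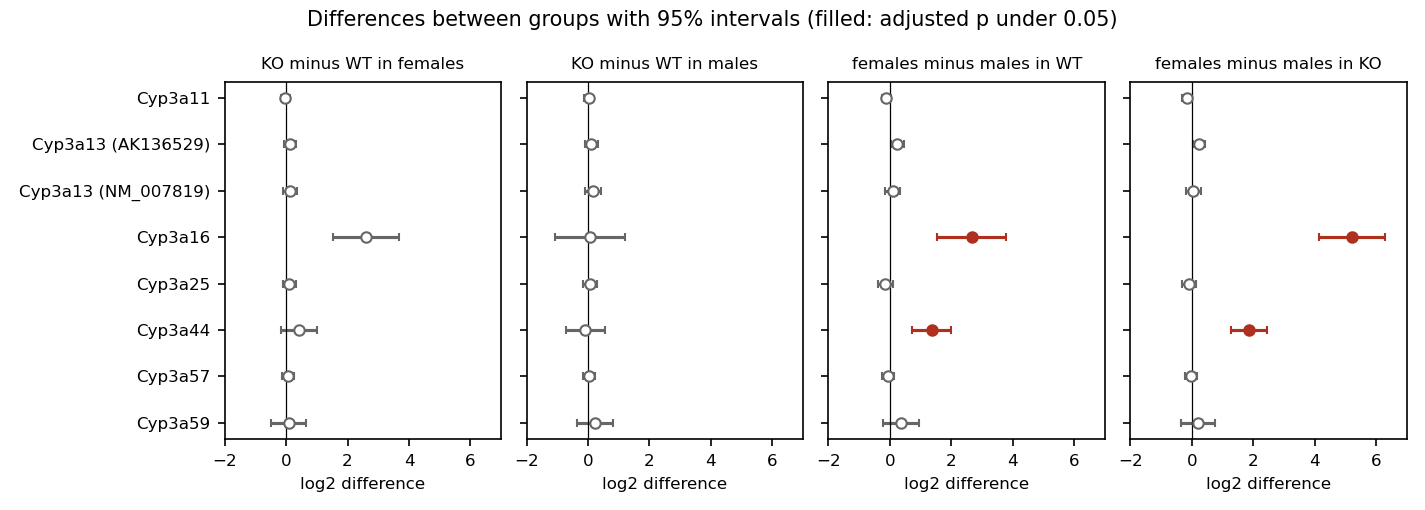
Log2 difference and 95% interval of each Cyp3a probe set for KO minus WT in females and in males and for females minus males in WT and in KO, from the limma fit to 23 arrays; filled points have an adjusted p under 0.05. Only Cyp3a16 and Cyp3a44 between the sexes are filled, and the point for Cyp3a16 in KO against WT females stands at 2.61 unfilled.

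The female arrays differed widely from each other in both genes. For Cyp3a16 this cannot be set against the males, which were all under the floor. The SD of Cyp3a16 in female WT mice ranked 2 among 38385 probe sets, and in female KO mice it ranked 15, against a median SD over all probe sets of 0.148 and 0.145. The SD of Cyp3a44 ranked 55 in female WT and 40 in female KO, but was near the median in male WT, at 0.14. The SD of Cyp3a44 in females was 4.95 times that in males in WT and 10.4 times that in KO. Such ranks describe these arrays and carry no test.

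Both genes were high in the same WT females, namely arrays 3, 4 and 6. Over the 6 WT females their Pearson r was 0.982 (exact permutation p = 0.0111, adjusted 0.233 over 63 relations) and Spearman's rho was 0.886 (p = 0.0333, adjusted 0.525). Leaving out the 2 arrays farthest from the median of Cyp3a16 gave r = 0.991. In KO females r was 0.59 (exact p = 0.208, adjusted 0.576) and rho 0.6 (p = 0.242, adjusted 0.662), and r became 0.925 without the 2 farthest arrays. In KO males, where Cyp3a16 was under the floor, r was 0.0883. None of the 63 relations within groups passed after adjustment.

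Cyp3a25 and Cyp3a59, whose promoters were 96.3% identical, were the other pair that varied together. Within WT females r was 0.927 (exact p = 0.00833, adjusted 0.233) and rho 0.943 (p = 0.0167, adjusted 0.525). In KO males r was 0.958 (exact p = 0.0111, adjusted 0.233) and rho 0.886 (p = 0.0333, adjusted 0.525). In KO females r was 0.922 (exact p = 0.0222, adjusted 0.28) and rho 0.657 (p = 0.175, adjusted 0.649). The relation in KO females rested on its extreme arrays, since r fell to 0.253 without the 2 farthest, while it was 0.784 in WT females and 0.852 in KO males on the same terms. Cyp3a16 and Cyp3a59 ran opposite ways in WT females, with r = -0.856 (exact p = 0.0167, adjusted 0.263) and rho = -0.886 (p = 0.0333, adjusted 0.525). In KO females r was -0.403 (exact p = 0.419, adjusted 0.771), and in KO males, where Cyp3a16 was under the floor, it was 0.758 (exact p = 0.0861, adjusted 0.467).

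**Figure D4:**
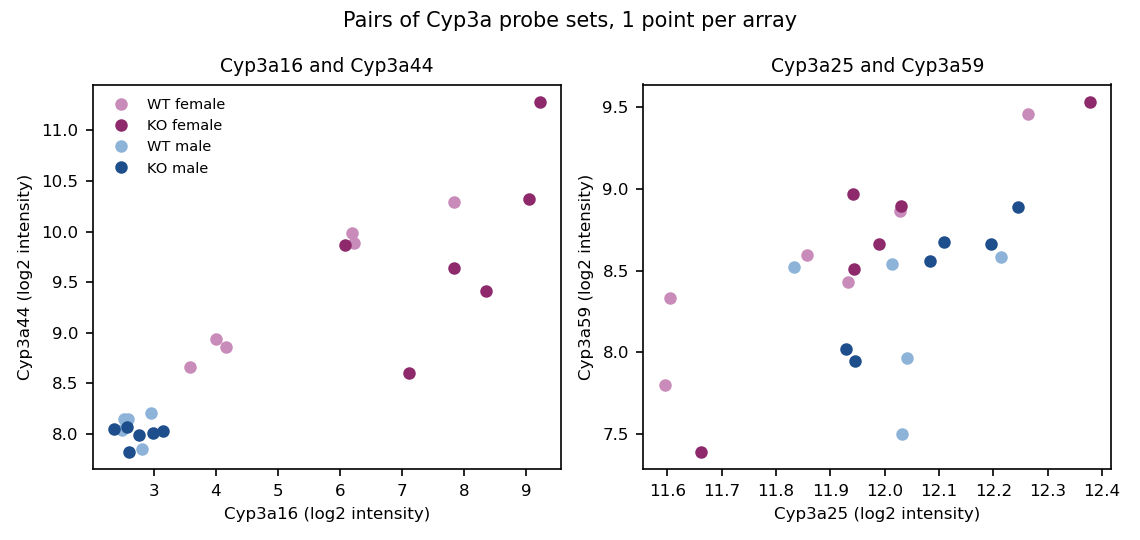
Log2 intensity of Cyp3a44 against Cyp3a16 (left) and of Cyp3a59 against Cyp3a25 (right), 1 point per array, coloured by group. In the left panel WT females run from 3.59 to 7.83 on the Cyp3a16 axis with Cyp3a44 rising alongside, while the male points sit in 1 cluster; in the right panel males and females overlap.

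Cyp3a11 was at nearly the same level in all 4 groups. Female WT arrays ran from 13.33 through a median of 13.45 to 13.64 (mean 13.46 ± 0.10, n = 6), and female KO arrays from 13.26 through 13.39 to 13.70 (13.44 ± 0.18, n = 6). Male WT arrays read 13.72, 13.46, 13.52, 13.61 and 13.58 (13.58 ± 0.10, n = 5), and male KO arrays ran from 13.51 through 13.59 to 13.69 (13.59 ± 0.06, n = 6). All groups overlapped. KO minus WT was -0.03 in females (95% interval -0.18 to 0.12) and 0.02 in males (-0.14 to 0.18), with upper limits of 1.09-fold and 1.13-fold. Females minus males was -0.11 in WT (SE 0.08, adjusted p = 0.509) and -0.16 in KO (SE 0.07, 95% interval -0.31 to -0.01, adjusted p = 0.281). Neither passed the test.

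Cyp3a25 showed the same flat pattern. Female WT arrays ran from 11.60 through 11.89 to 12.26 (mean 11.88 ± 0.26, n = 6), and female KO arrays from 11.66 through 11.97 to 12.38 (11.99 ± 0.23, n = 6). Male WT arrays read 11.83, 12.04, 12.01, 12.03 and 12.21 (12.03 ± 0.13, n = 5), and male KO arrays ran from 11.93 through 12.10 to 12.24 (12.08 ± 0.13, n = 6). The groups overlapped, with KO minus WT at 0.11 in females (SE 0.11, adjusted p = 0.923) and 0.06 in males (SE 0.11, adjusted p = 0.969).

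Cyp3a59 overlapped between all groups as well, with a wider spread. Female WT arrays ran from 7.80 through 8.51 to 9.46 (mean 8.58 ± 0.56, n = 6), and female KO arrays from 7.39 through 8.78 to 9.53 (8.66 ± 0.71, n = 6). Male WT arrays read 8.52, 7.97, 8.54, 7.50 and 8.58 (8.22 ± 0.48, n = 5), and male KO arrays ran from 7.95 through 8.61 to 8.89 (8.46 ± 0.38, n = 6). Its SD was high in both sexes, with ranks of 121 in female WT, 66 in female KO, 181 in male WT and 459 in male KO. KO minus WT was 0.08 in females (95% interval -0.48 to 0.64) and 0.24 in males (-0.35 to 0.82).

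Cyp3a13 has 2 probe sets on the array, one drawn from the clone sequence AK136529 and one from NM_007819. On the AK136529 probe set female WT arrays ran from 9.81 through 10.33 to 10.54 (mean 10.28 ± 0.26, n = 6) and female KO arrays from 10.28 through 10.40 to 10.48 (10.39 ± 0.07, n = 6). Male WT arrays read 10.20, 10.06, 10.21, 9.88 and 9.83 (10.04 ± 0.18, n = 5), and male KO arrays ran from 10.06 through 10.10 to 10.39 (10.15 ± 0.12, n = 6). Females averaged 0.25 above males in both WT (SE 0.10, adjusted p = 0.191) and KO (SE 0.09, adjusted p = 0.164), and neither passed. The WT difference was 0.34 with an adjusted p of 0.0169 when female WT array 6, the lowest female, was left out, and 0.32 with 0.0494 under array weights. In KO its two-sided exact permutation p was 0.00649, unadjusted.

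The NM_007819 probe set had a smaller difference between the sexes, 0.09 in WT (SE 0.12, adjusted p = 0.78) and 0.05 in KO (SE 0.12, adjusted p = 0.899), which turned to -0.01 under quantile normalization. Its arrays ran from 8.60 to 8.90 in female WT, from 8.76 to 9.07 in female KO, from 8.45 to 8.86 in male WT and from 8.46 to 9.52 in male KO, with 1 male KO array, number 3, at the top. KO minus WT on the AK136529 probe set was 0.11 in females and 0.11 in males, and on NM_007819 it was 0.13 and 0.17, with adjusted p-values of 0.877 or more. Cyp3a57 was under the floor on all 23 arrays, with group means of 3.17 to 3.27, and no fold or direction is given for it. It was also the only member removed by a filter on dim probe sets, which 7 of 8 passed.

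The regulators of Cyp3a genes gave no call with the knockout. Of 14 measured out of 14 listed, 0 passed in KO against WT in females (median difference 0.05) and 0 in males (0.06), against medians over all probe sets of -0.01 and 0.00. Nr1i2, the PXR gene, differed by 0.12 in females (SE 0.08, adjusted p = 0.894). Between the sexes, Nr1i3, the CAR gene, was higher in females by 0.54 in WT (SE 0.09, adjusted p = 0.00051) and 0.60 in KO (SE 0.09, adjusted p = 4.51e-05). Ppargc1a, a coactivator of nuclear receptors, was higher by 0.46 in WT and 0.56 in KO. Nr0b2, which encodes the repressor SHP, was lower in KO females than in KO males by 0.67 on the log2 scale (difference -0.67, adjusted p = 0.00298), and the other 11 regulators did not pass.

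Other targets of PXR and CAR, 15 measured of 20 listed, gave 0 calls in KO against WT in either sex, with medians of 0.06 in females and 0.01 in males. Between the sexes, 4 were higher and 1 lower in WT females (median 0.16), and 5 were higher and 2 lower in KO females (median 0.21). Cyp2b10, a P450 gene driven by CAR, was higher in females by 3.49 in WT and 3.38 in KO. Slco1a4, an uptake transporter, was higher by 1.05 and 1.35, and Papss2, which makes the sulfate donor of sulfotransferases, by 0.83 and 0.92. Cyp2c55, another P450 gene, was lower in females, with differences of -0.86 in WT and -1.02 in KO.

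The electron donors and haem enzymes that P450s depend on, 12 measured of 14 listed, gave 0 calls in KO against WT in either sex, with medians of 0.05 and 0.01. In WT, Cyb5b, a cytochrome b5 of the mitochondrial outer membrane, was lower in females (difference -0.28, adjusted p = 0.0424). In KO none passed between the sexes. The 10 nearest protein-coding neighbours of the Cyp3a cluster gave 0 calls in all 5 comparisons. Of the 10 neighbours of Cyp3a13, 0 passed in KO against WT. Between the sexes, Pilrb1, an immune receptor gene, was higher in females by 0.47 in WT and 0.41 in KO. Pilra was also higher in KO females than in KO males, by 0.37 (limma adjusted p = 0.027).

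Genes outside the family that are known for female-biased expression in liver were listed as well. Of 18 measured out of 24 listed, 3 rose in KO females: the sulfotransferase genes Sult2a2 by 5.00 (SE 0.39) and Sult2a1 by 3.44 (SE 0.28), and the peroxisomal oxidase gene Hao2 by 2.64 (SE 0.30), with limma adjusted p-values of 6.07e-09, 1.27e-08 and 1.14e-05. The median over the 18 was 0.33, and 0 passed in males, where it was -0.04. Over all probe sets the test called 0.0547% in KO against WT in females and 0.0313% in males. Sult2a1 ran from 4.14 to 6.89 in female WT and from 8.82 to 9.75 in female KO, with no overlap, unlike Cyp3a16. The same 3 passed for the difference of the KO effects, at 4.92, 3.50 and 2.72, values that set the females against male arrays all under the floor. Sult2a2 in female WT, from 3.52 to 4.17, also reached below the floor.

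Of 15 male-biased genes measured out of 23 listed, 2 fell in KO females, the steroid dehydrogenase gene Hsd3b5 with a difference of -3.73 (SE 0.31, adjusted p = 1.7e-08) and the P450 gene Cyp2d9 with -0.80 (SE 0.10, adjusted p = 2.42e-05), and the median was -0.21. Between the sexes, 17 of 18 female-biased genes were higher in WT females and 18 of 18 in KO females. Of the male-biased genes, 13 of 15 were lower in females in each genotype. Over all probe sets, 2.54% were called higher in females in WT and 3.21% in KO. Both lists were chosen with earlier results of these data known, so neither these counts nor those for KO against WT are an independent check.

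Mediators of growth hormone signalling, 14 measured of 17 listed, gave 0 calls in KO against WT in either sex, with medians of 0.01 and 0.03. Between the sexes, 4 of the 14 were higher and 0 lower in WT females, and 6 were higher and 1 lower in KO females. Cux2, a female-biased repressor and activator, was higher in females by 0.70 in WT and 0.96 in KO. Esr1, an oestrogen receptor gene, was higher by 1.75 and 1.61. Trim24, a transcriptional cofactor, was higher by 2.04 and 2.30. Onecut1, whose core motif was searched above, did not pass in any of the 5 comparisons, with -0.56 for KO against WT in females (SE 0.49, adjusted p = 0.915).

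**Figure D5:**
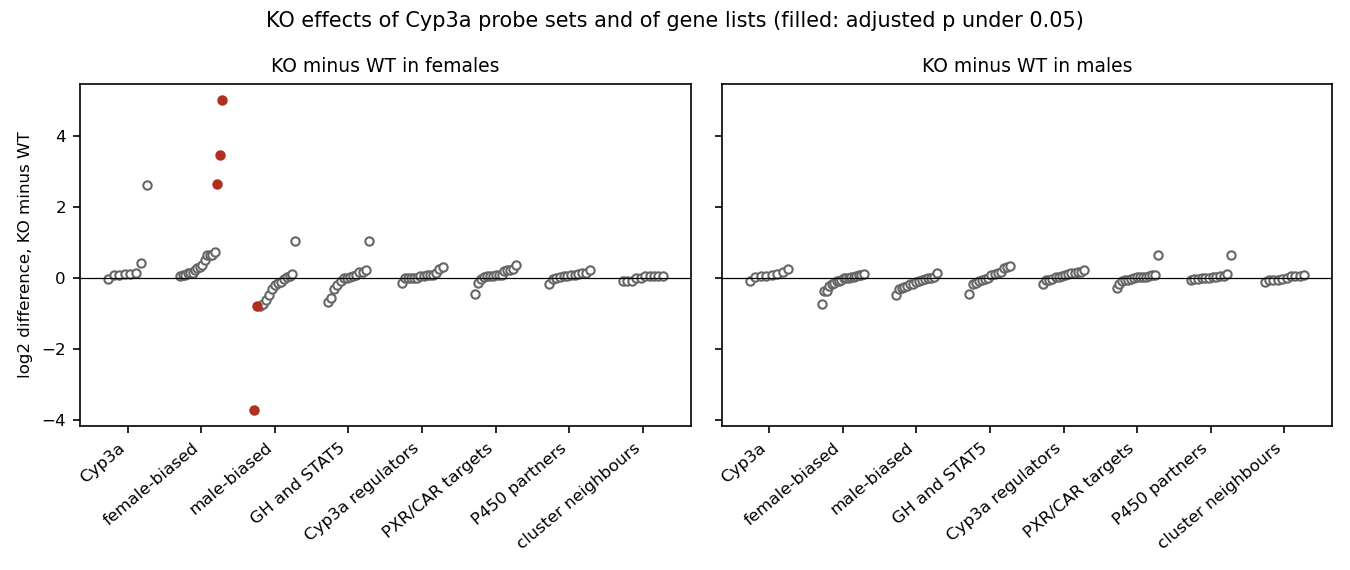
Log2 difference KO minus WT in females (left) and males (right) for the Cyp3a probe sets and for the brightest probe set of each gene in 7 lists, sorted within each list; filled points have a limma adjusted p under 0.05. In females the filled points are Sult2a2, Sult2a1 and Hao2 above 0 and Hsd3b5 and Cyp2d9 below it, the Cyp3a point at 2.61 is Cyp3a16, and no point is filled in males.

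The genes whose arrays most resembled each member were ranked by Pearson r over the 23 arrays, a description that mixes the difference between the sexes with variation within groups. For Cyp3a16 the closest were Rcan2 (0.946), a calcineurin regulator, Sult2a1 (0.931), Kyat3 (0.913), Lratd2 (0.906) and Homer2 (0.905). For Cyp3a44 they were Rcan2 (0.898), Ugt2b37 (0.893), Cux2 (0.882), A1bg (0.863) and Esr1 (0.859). Cyp3a16 was under the floor on all male arrays and on female WT array 1, and Sult2a1 on all male arrays. This limits what the r of Cyp3a16 can show, here and with group means subtracted. Rcan2 read 6.81, 6.80, 7.86, 8.32, 7.09 and 7.58 on female WT arrays 1 to 6, so arrays 3, 4 and 6 were again the higher ones. It ran from 7.55 to 8.56 in female KO and from 5.72 to 6.61 in all males.

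With group means subtracted, the closest to Cyp3a16 were Slc34a2 (0.864), Dnaaf4 (0.85), Ajuba (0.833), Tigar (0.791) and Rcan2 (0.768), and the closest to Cyp3a44 were Slco1a1 (0.748), Adipoq (0.731), Serpina1e (0.73), Ezr (0.718) and Erfe (0.707). Adipoq had group means of 3.01 to 3.43, all under the floor. The only arrays above it were female WT array 3 (3.93) and female KO arrays 1 (3.77) and 3 (4.25). Cyp3a44 read 9.88, 10.32 and 11.28 on those arrays. On all other arrays Adipoq was under the floor and only a bound, which limits what its r can show. Cyp3a11 kept the same leading companions on both measures: H2-Q10, a class I histocompatibility gene (0.91 over all arrays and 0.892 within groups), Gsta3, a glutathione transferase gene (0.873 and 0.887), and Ugt2b36, a glucuronosyltransferase gene (0.867 and 0.857). Cyp3a13 was closest to Mthfd1 (0.831) over all arrays, Cyp3a25 to Tmem123 (0.811) and Cyp3a59 to Bbs1 (0.764).

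Some markers of several cell types differed between the sexes. Of 7 Kupffer cell markers, 5 were higher in females in WT and 6 in KO. Their summed level was 12.15 to 12.44 in female WT against 11.65 to 12.07 in male WT, and 12.22 to 12.60 in female KO against 11.65 to 12.11 in male KO. Of 9 pericentral hepatocyte markers, 1 (Slc1a2) was higher in WT females and 4 (Slc1a2, Rhbg, Oat and Glul) in KO females, with summed levels of 15.54 to 15.76 in female WT, 15.55 to 15.70 in male WT, 15.65 to 15.80 in female KO and 15.51 to 15.63 in male KO. Of 7 lymphocyte markers, 3 were higher in females in WT and 2 in KO, with summed levels of 8.12 to 8.46 against 7.77 to 8.01 in WT and of 8.11 to 8.43 against 7.78 to 8.06 in KO. Of 7 sinusoidal endothelial markers, 1 was higher in each genotype, with sums of 11.73 to 11.90 against 11.44 to 11.65 in WT and of 11.67 to 11.87 against 11.45 to 11.59 in KO. Of 7 stellate cell markers, 0 passed in WT and 2 were higher in KO females. Other calls were lower in females. Of 5 periportal hepatocyte markers measured, 1 (Cyp2f2) was lower in females, with differences of -0.36 in WT and -0.42 in KO. Of 5 cholangiocyte markers measured, 1 (Sox9) was lower in WT females (-0.41) and 0 passed in KO. The part of cell makeup in the Cyp3a differences between the sexes was not tested. In KO against WT no marker list had a gene called in either sex. In females the 9 pericentral markers all had positive differences, with a median of 0.17, and the highest Kupffer cell marker was Marco at 0.996 (limma adjusted p = 0.599) beside a median of 0.05 for its list. Their part in the Cyp3a16 difference was not tested.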

How the data were processed

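Liver RNA of 23 mice was hybridised as biotin-labelled cRNA, 1 array per mouse. The deposited values are a linear intensity per probe set that the authors computed by RMA, per the submitters' processing notes; neither its version nor its settings are given in the sources used here. Values were converted to log2. Groups and array numbers came from the sample titles.

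Of 38385 probe sets, 24478 had 1 gene symbol in the platform annotation, 65 had several and 13842 are unnamed here. By Entrez ID 24237 matched the RefSeq table (GRCm38.p6), used for gene order and promoters. Promoter windows hold 250 bases before and 50 after the start and were aligned globally with Biopython 1.88 (match 1, mismatch -1, gap opening -3, extension -0.5), with gapped columns inside the overlap counted as not identical.

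In R 4.3.3, limma 3.58.1 (lmFit, then eBayes) fitted 1 mean per group to every probe set on 23 arrays, leaving 19 residual degrees of freedom and adding 7.61 prior ones. The Benjamini-Hochberg adjustment ran over the whole array, and a call needs an adjusted p under 0.05. SE and intervals are limma's, and errors beside means are SDs. The fit was tested on simulated data. Exact permutation tests used scipy 1.17.1 in Python 3.11.15, were two-sided, and were added after the data were seen. Figures were drawn with matplotlib 3.10.9. The only replicate unit is the array. The limma p-values set each difference against 1 spread within groups, averaged over all 4 groups and combined with the spread shared between probe sets. For Cyp3a16 and Cyp3a44, whose SDs differed widely between the sexes, this is not the spread of the compared groups alone. No label says how mice were housed or bred.

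The members, the gene lists and the comparisons were chosen with earlier results of these data known. All Cyp3a probe sets are named. From each list, up to 4 genes with the smallest p among those passing, or up to 2 where none passed, could be named, and not all are printed. Nr1i2, Onecut1 and Cyp2c55 fall outside that rule and were named after their values were seen. The 5 named genes most alike each member were ranked by Pearson r.

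The alternatives tried were quantile normalization, array medians set equal, weights for each array, a robust variance that follows intensity, the 19192 probe sets brighter than 4.35 only, a block for the array number, a change of at least 20%, a test without the shared spread, only the compared groups, the average of the Cyp3a13 probe sets, and leaving out each array in turn. Arrays give signal, not counts, so their number limits the precision.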

Additional observations from a re-analysis of the deposited data

Results flagged for a closer look

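Of 32 groups of Cyp3a values (8 probe sets in 4 groups of mice), 2 held 1 array standing far from the rest of its group. Chance alone would mark about 1 in 20 groups. On the AK136529 probe set of Cyp3a13, male KO array 3 was the highest of its group at 10.4, and on the NM_007819 probe set it was also the highest, at 9.52. On Cyp3a44, male KO array 2 was the lowest of its group at 7.83, with the other 5 between 7.99 and 8.07. The cause of neither was tested.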

How the results depend on the processing

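The number of Cyp3a probe sets called in KO against WT in females went from 0 to 1 with array weights, and ranged from 0 to 1 with 1 array left out. It was 1 (Cyp3a16) without female KO array 2 or without female WT array 4. For females against males in WT the count went from 2 to 3 with array weights (Cyp3a13 on AK136529 added) and to 1 with a minimum change of 20%. It went to 0 on the WT arrays only without the shared spread, and was 2 to 3 with 1 array left out. It was 2 in KO under every alternative run, and 0 for KO against WT in males and for the difference between both KO effects. With the array number as a replicate block the counts were 0, 0, 0, 2 and 2, and Cyp3a16 in KO against WT females had an adjusted p of 0.0825. Same-numbered arrays of 2 groups deviated with correlations from -0.143 to 0.215, a description that carries no test. The labels do not say what the numbers mean, so whether same-numbered mice share a factor is not known. The block changed no Cyp3a call.

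Of 40 differences under 1302 alternatives, 50 values in 12 differences changed sign, none of them called. The AK136529 probe set of Cyp3a13 turned for the difference of the KO effects to -0.0195 with quantile normalization, -0.0775 with array weights and -0.0212 with the mean of probe sets. The NM_007819 probe set turned for females against males in KO to -0.0115 with quantile normalization and -0.00855 with array weights. Cyp3a25 turned to -0.000544 for the difference of the KO effects with quantile normalization, and Cyp3a57 to -0.0109 for KO against WT in males with array weights.

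With 1 array left out, the range crossed 0 for Cyp3a11 in KO against WT in females (-0.0789 to 0.00821) and males (-0.0115 to 0.0533), for Cyp3a16 in males (-0.0151 to 0.14) and for Cyp3a59 in females (-0.0931 to 0.335). For Cyp3a57 it crossed 0 for KO against WT in males (-0.00738 to 0.0912), the difference of the KO effects (-0.0306 to 0.0712) and females against males in KO (-0.0915 to 0.0103). For that difference it also did so in both Cyp3a13 probe sets (-0.0949 to 0.0521 and -0.12 to 0.0908), Cyp3a25 (-0.0253 to 0.129) and Cyp3a59 (-0.33 to 0.098), and for females against males in KO in the NM_007819 probe set (-0.0287 to 0.182). The cause was not tested. Signal at or under the floor of 3.69 limits what can be said of Cyp3a57, and of Cyp3a16 in males.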
